A study of Mus musculus with 2 samples.

Results

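The core circadian clock genes were described in the kidney of 1 adult mouse, a female of the inbred strain C57BL/6J aged 10 weeks. They were chosen by name as the 10 genes Arntl, Clock, Per1, Per2, Per3, Cry1, Cry2, Nr1d1, Nr1d2 and Dbp, and all 10 had a row among the 43346 gene rows. Polyadenylated RNA, extracted with the RNeasy Lipid Tissue Mini Kit, was sequenced in 2 libraries of the same tissue sample, which the labels call technical replicates 2 and 1 and which are called library 2 and library 1 here. They form 1 group, with no treatment, no altered allele and no second animal. Library 2 was the later one, per the labels, and held 20720537 expected counts, the estimated number of reads assigned to genes, while library 1 held 28263730. The sources used here do not state the hour at which the kidney was taken, so no level can be placed on the daily cycle. Both libraries come from one tissue sample and therefore from a single moment of that cycle. A difference between them is therefore no difference in time, and every SD is technical.

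The mammalian clock is a transcriptional feedback loop that runs in nearly every cell. ARNTL (also called BMAL1) and CLOCK form a dimer that binds E-boxes and activates the Per, Cry, Nr1d and Dbp genes. PER and CRY proteins return to the nucleus and repress that dimer, while the NR1D proteins (REV-ERB alpha and beta) repress Arntl through the RORE element, where ROR receptors activate. DBP, a PAR bZIP factor, carries the rhythm to genes with a D-box. In the kidney the clock is known for its influence on sodium and water handling along the tubule.

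Markers of the kidney tubule were present, though unequally in the libraries. Umod of the thick ascending limb had 2636 TPM in library 2, against 381 TPM in library 1, where TPM is a transcript's length-corrected share of a library. Slc12a1 of that segment had 568 TPM in library 2, against 400 TPM in library 1, with a log2 ratio of scaled counts of -0.86, against 1.43 for Umod. Slc34a1 of the proximal tubule had 1337 TPM in library 2, against 93.5 TPM in library 1. The distal convoluted tubule marker Slc12a3 reached 261 TPM in library 2, against 3.98 TPM in library 1, and Aqp2 of principal cells stood at 176 TPM in library 2, against 0.79 TPM in library 1, so in library 1 these 2 markers were near or below the liver marker Alb. Of the markers of other organs, liver Alb was at 7.05 TPM in library 2, against 3.55 TPM in library 1, and muscle Ckm at 0.15 TPM in library 2, against 0 TPM in library 1. The mitochondrial genes with 11 nuclear copies held 36.5% of all TPM in library 2, against 74.5% in library 1, so TPM of all other genes was pressed down more in library 1. Over the 13376 genes that reached TPM 1 in at least 1 library, the median was 12.2 TPM in library 2, against 3.27 TPM in library 1. Because of this, ratios between libraries were taken from counts scaled by TMM, a factor set by the bulk of genes, and levels of different genes were compared within a library.

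In library 2, 9 of the 10 clock genes reached TPM 1, and in library 1, 4 did. These 4, Arntl, Clock, Cry1 and Nr1d2, reached it in both libraries. The median over the 10 genes was 5.33 TPM in library 2, against 0.365 TPM in library 1, and their summed level was 85.0 TPM in library 2, against 46.2 TPM in library 1. In whole tissue, fewer cells of a type and less RNA per cell cannot be told apart in the level of a gene within a library. Between the libraries the tissue sample was the same. The plot of levels shows 2 patterns. Arntl, Clock and Nr1d2 lay between 8.49 and 18.5 TPM as deposited in both libraries. By contrast, Per1 and Nr1d1 had 7.38 and 21.4 TPM in library 2, and 9 and 18 counts in library 1. In library 2 they lay above 35.9% and 65.7% of the genes that reached TPM 1 in at least 1 library. Without mitochondrial genes and copies in the sum, Arntl stood at 25.1 TPM in library 2, against 33.3 TPM in library 1. On that basis Clock stood at 25.0 TPM in library 2, against 64.9 TPM in library 1, and Nr1d2 at 22.3 and 72.5 TPM.

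**Figure D1:**
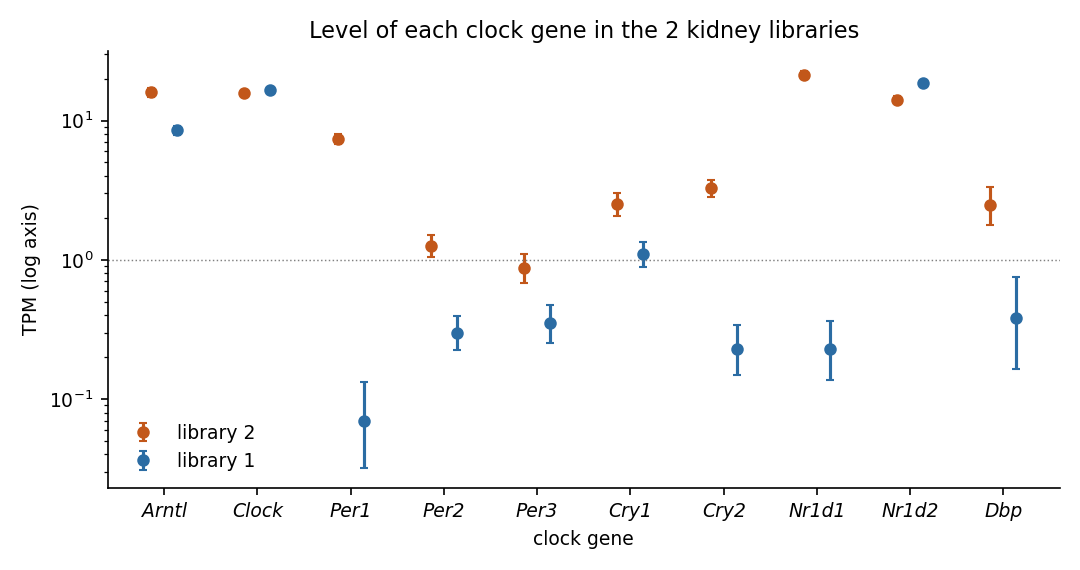
TPM of each clock gene on a log axis, library 2 in orange at the left and library 1 in blue at the right of each pair; bars are exact 95% Poisson intervals of the count behind each value and the dotted line is TPM 1. Per1 stood at 7.38 TPM in library 2, against 0.07 TPM in library 1, while Clock stood at 15.8 TPM in library 2, against 16.5 TPM in library 1.

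For the comparison of library 2 with library 1, a gene was called when the two-sided exact binomial test gave an adjusted p under 0.05 (Benjamini-Hochberg over the 15553 genes tested) and the log2 ratio was at least 1 in size. What is compared is 2 libraries and no conditions, without a replicate check. All 10 clock genes had the 10 counts needed to be tested. Of them, 4 were higher in library 2 (Per1, Cry2, Nr1d1 and Dbp), 2 were higher in library 1 (Clock and Nr1d2) and 4 were not called (Arntl, Per2, Per3 and Cry1). Among all genes tested, 60.5% were called, 35.5% as higher in library 2 and 24.9% as higher in library 1, so 6 of 10 is a share near the background. Of these 6 calls, that of Nr1d1 alone held in its direction once a trend on GC content was removed, and those of Clock and Nr1d2 did not hold on total counts. The median log2 ratio was 0.49 over the clock genes and 0.12 over all genes tested; with the GC trend removed, it was -0.24 over the clock genes.

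Arntl and Clock encode the activating dimer. Arntl lies at chr7:113207465-113314126 on the plus strand of mm10, and Clock at chr5:76209868-76304792 on the minus strand; both had a single transcript in the tables. Arntl had 15.9 TPM (712 counts) in library 2, against 8.49 TPM (711 counts) in library 1, a mean of 12.2 ± 5.27 TPM (SD, n = 2 libraries). Its scaled counts were 0.730 times as high in library 2 as in library 1 (95% counting interval 0.657 to 0.811), a log2 ratio of -0.45 that was not called although its exact adjusted p was 6.03e-09. Clock had 15.8 TPM (1901 counts) in library 2, against 16.5 TPM (3718 counts) in library 1, a mean of 16.2 ± 0.488 TPM. Its TPM had the smallest spread relative to its mean of the 10, yet its scaled counts were lower in library 2, except with the GC trend removed (0.02), with a log2 ratio of -1.42 (interval -1.50 to -1.34, exact adjusted p = 4.7e-286). TPM is a share of a sum that includes the mitochondrial genes. Without them in the sum, Clock stood at 25.0 TPM in library 2, against 64.9 TPM in library 1. The Clock to Arntl ratio of TPM was 0.994 in library 2 and 1.95 in library 1, so the partners were level in library 2 and Clock led in library 1.

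The RefSeq promoter windows, which run 250 bases before to 50 after each annotated start on GRCm38.p6, were searched on both strands for the elements through which the loop is known to act. They were the E-box CACGTG, the E'-box CACGTT, the D-boxes TTATGTAA and TTATGCAA, and the RORE TAGGTCA. Of the 10 genes, 9 had a window (Per2 had none), with 13 windows in all; an E-box or E'-box was found in windows of 4 genes, a D-box in 2 and a RORE in 1. Over all 32851 windows, 7.15% hold the E-box, 4.68% the E'-box, 1.66% a D-box and 2.61% the RORE. The stretches with matches in 5 genes follow, 5′ to 3′ on the gene's strand, with each match in capitals. They show which element of the loop stands beside which gene. Positions are counted from the first transcribed base of the window with the match as 0. Arntl and Per1 each had another window, at another annotated start, without a match.
Per1, chr11:69098753-69098948, plus strand, E-box at -166 and D-box at -24: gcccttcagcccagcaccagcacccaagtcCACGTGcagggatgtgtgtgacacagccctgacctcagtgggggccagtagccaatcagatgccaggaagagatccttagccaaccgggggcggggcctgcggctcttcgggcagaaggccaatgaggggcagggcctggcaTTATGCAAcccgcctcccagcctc
Per3, chr4:151044786-151044900, minus strand, D-boxes at -205 and -158: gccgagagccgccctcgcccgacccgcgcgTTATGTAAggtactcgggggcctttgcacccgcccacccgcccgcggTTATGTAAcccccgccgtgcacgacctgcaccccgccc
Cry1, chr10:85185079-85185163, minus strand, E'-box at -79 and E-box at -60: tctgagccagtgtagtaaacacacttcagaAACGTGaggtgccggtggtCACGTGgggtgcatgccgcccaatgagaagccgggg
Nr1d1, chr11:98775378-98775435, minus strand, E'-box at -28: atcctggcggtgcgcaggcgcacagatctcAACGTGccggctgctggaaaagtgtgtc
Arntl, chr7:113207529-113207558, plus strand, RORE at 30: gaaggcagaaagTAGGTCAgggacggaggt
Cry2, the fourth of the genes with such a box, had an E'-box at -166. Clock, Dbp and Nr1d2 had no match, which says only that these letters are not in these windows.

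The 3 Period genes encode the PER repressors. Per1 (chr11:69095217-69109960, plus strand) had 7.38 TPM (521 counts) in library 2, against 0.07 TPM (9 counts) in library 1. Its scaled counts were 40.4 times as high in library 2 (interval 22.1 to 92.8, exact adjusted p = 4.52e-108), the largest ratio of the 10 genes. Per2 (chr1:91415982-91459324, minus strand) had 1.26 TPM (117 counts) in library 2, against 0.30 TPM (53 counts) in library 1, a log2 ratio of 0.68 (interval 0.21 to 1.18, exact adjusted p = 0.00541) that stayed under the size needed for a call. Per3 (chr4:151003652-151044665, minus strand) had 0.87 TPM (73 counts) in library 2, against 0.35 TPM (43 counts) in library 1, a log2 ratio of 0.30 (interval -0.26 to 0.89, exact adjusted p = 0.338). Per3 was the one clock gene under TPM 1 in both libraries. Within library 2, Per1 was 5.86 times as abundant as Per2, and within library 1 it was 0.233 times as abundant, so the leading Period gene differed between 2 libraries of the same kidney. The ratio of Per3 to Per2 was 0.690 in library 2 and 1.17 in library 1, and their counting intervals overlapped in both. By the deposited posterior mean of TPM, the ratio of Per3 to Per2 was 0.438 in library 2 and 0.432 in library 1, so Per3 did not lead in library 1, and that of Per1 to Per2 was 3.42 in library 2 and 0.239 in library 1.

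The cryptochromes Cry1 and Cry2 encode the other repressors of the dimer. Cry1 (chr10:85131700-85185064, minus strand) had 2.50 TPM (116 counts) in library 2, against 1.10 TPM (96 counts) in library 1, with a log2 ratio of -0.18 (interval -0.59 to 0.22, exact adjusted p = 0.427). Cry2 (chr2:92403646-92434043, minus strand) had 3.27 TPM (199 counts) in library 2, against 0.23 TPM (25 counts) in library 1, with scaled counts 5.72 times as high in library 2 (interval 3.82 to 9.18, exact adjusted p = 9.47e-24). The ratio of Cry1 to Cry2 was 0.765 in library 2, where their intervals overlapped, and 4.78 in library 1, where they did not; by posterior mean TPM it was 0.667 in library 2 and 2.25 in library 1. Their proteins, of 606 and 592 residues, share 73.5% of 570 aligned residues, but wobble (last) codon positions are 52.9% G or C in Cry1 and 70.3% in Cry2. A stretch of 40 codons from the reference coding sequences (GENCODE M21, exons 5 and 6 of both genes) shows how nearly the same protein is written in different base compositions. It spans residues 224 to 263 of CRY1 and 242 to 281 of CRY2, with 39 of 40 residues identical. Capitals mark the 29 bases that differ, of which 24 are wobble positions. Coordinates include the intron between the exons.
Cry1, chr10:85146772-85147921, minus strand, 48.3% G or C: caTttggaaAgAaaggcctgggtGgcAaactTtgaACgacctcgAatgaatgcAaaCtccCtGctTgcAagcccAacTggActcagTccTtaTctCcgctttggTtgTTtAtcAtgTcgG
Cry2, chr2:92416190-92422176, minus strand, 60% G or C: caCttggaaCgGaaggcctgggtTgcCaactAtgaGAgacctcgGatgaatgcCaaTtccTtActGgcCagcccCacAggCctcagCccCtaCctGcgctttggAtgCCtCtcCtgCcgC

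Nr1d1 and Nr1d2 encode REV-ERB alpha and beta, heme-binding nuclear receptors that repress Arntl. Nr1d1 (chr11:98767932-98775333, minus strand) had 21.4 TPM (869 counts) in library 2, the highest of the 10 genes there, and 0.23 TPM (18 counts) in library 1. Its scaled counts were 34.4 times as high in library 2 (interval 22.1 to 59.7, exact adjusted p = 9.02e-176). Nr1d2 (chr14:18204054-18239127, minus strand) had 14.1 TPM (1014 counts) in library 2, against 18.5 TPM (2519 counts) in library 1, the highest of the 10 genes there. Its scaled counts were 0.294 times as high in library 2 as in library 1 (interval 0.273 to 0.316, exact adjusted p = 3.4e-267). The paralogs thus differed in opposite directions, and the signs were the same on total counts (6.00 for Nr1d1 and -0.86 for Nr1d2) and with the GC trend removed (1.76 and -0.29), where Nr1d2 was not called. Nr1d1 exceeded Nr1d2 by 1.51 times in library 2, and Nr1d2 exceeded Nr1d1 by 80.3 times in library 1. Such ratios within a library do not depend on how the libraries are scaled, but no GC trend was removed from them. At the GC content of each gene, the smooth trend of the log2 ratio between libraries was at 3.38 for Nr1d1 and -1.48 for Nr1d2.

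The REV-ERB pair also differs most in base composition among the paralog pairs compared. The Nr1d1 transcript is 56.8% G or C and that of Nr1d2 is 41.8%, and wobble positions are 67.9% G or C in Nr1d1 and 47.3% in Nr1d2. Their proteins, of 615 and 576 residues, are identical at 56.9% of 557 aligned positions.

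Dbp (chr7:45705088-45710203, plus strand), the D-box activator, had 2.47 TPM (42 counts) in library 2, against 0.38 TPM (8 counts) in library 1. Its scaled counts were 3.69 times as high in library 2 (interval 1.77 to 9.44, exact adjusted p = 0.000204). Dbp stood at 0.155 times the level of Arntl in library 2 and 0.0448 times in library 1. With 42 counts in library 2 and 8 in library 1 it had the fewest counts of the 10 genes in each library, and its interval is wide.

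The order of levels was compared within each library. No GC trend was removed from these levels or from the ratios of paralogs above. In library 2 it was Nr1d1, Arntl, Clock, Nr1d2, Per1, Cry2, Cry1, Dbp, Per2 and Per3. Neighbours whose 95% counting intervals overlapped were Arntl and Clock, Cry2 and Cry1, Cry1 and Dbp, and Per2 and Per3. Intervals of Arntl and Nr1d2, and of Cry2 and Dbp, overlapped too, though these genes are not neighbours in the order. In library 1 the order was Nr1d2, Clock, Arntl, Cry1, Dbp, Per3, Per2, Nr1d1, Cry2 and Per1, and the neighbours from Dbp to Cry2 overlapped. Arntl, Clock and Nr1d2 were among the leading 4 in both libraries. Among genes that reached TPM 1 in at least 1 library, Clock lay above 57.3% in library 2 and 80.6% in library 1, while Nr1d1 lay above 65.7% in library 2 and 13.0% in library 1.

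The TPM of the genes in each arm of the loop were summed within each library. No GC trend was removed from these sums, and Per1 had only 9 counts in library 1. Both libraries come from the same tissue sample, so the sums give no state of the loop. The activators Arntl, Clock and Npas2 summed to 40.4 TPM in library 2, against 26.8 TPM in library 1. The 3 PER genes summed to 9.51 TPM in library 2, against 0.72 TPM in library 1, or 0.236 of the activators in library 2 and 0.0268 in library 1. The 2 CRY genes summed to 5.77 TPM in library 2, against 1.33 TPM in library 1, or 0.143 of the activators in library 2 and 0.0496 in library 1. The REV-ERB pair summed to 35.5 TPM in library 2, against 18.7 TPM in library 1, or 0.879 of the activators in library 2 and 0.697 in library 1. The RORs, which oppose the REV-ERBs at the RORE, summed to 31.9 TPM in library 2, against 12.3 TPM in library 1. Dbp, Tef and Hlf, the PAR bZIP activators, summed to 55.0 TPM in library 2, against 18.8 TPM in library 1, of which Dbp was a small share.

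The ratio between the libraries moved with the base composition of the transcript. Across the 10 clock genes, Spearman's rho of the log2 ratio and GC content was 0.927 and Pearson's r was 0.814, given as a description across genes that share both libraries. Across 11508 genes with at least 100 counts, rho was 0.915. The lowest ratios belonged to Nr1d2 and Clock, with 41.8% and 42.1% G or C, and the highest to Nr1d1 and Per1, with 56.8% and 59.4%. Dbp, at 61.6% the richest in G and C, stood below both.

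**Figure D2:**
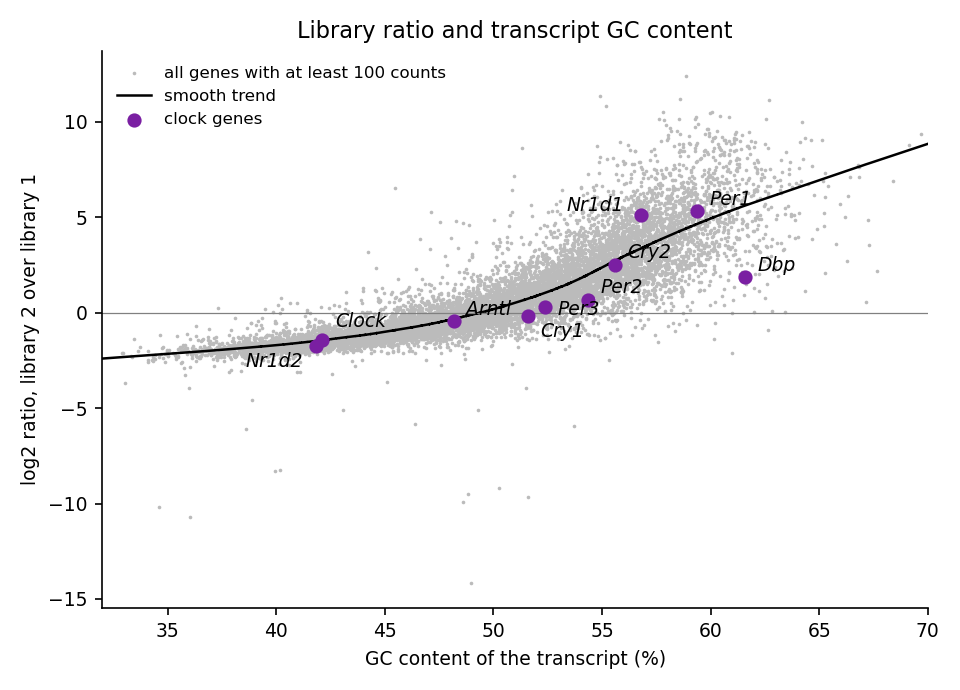
Log2 ratio of scaled counts, library 2 over library 1, against GC content of the transcript in percent, for genes with at least 100 counts (grey), the smooth trend through them (line) and the 10 clock genes (purple). The 3 clock genes that lie at least 1 from the trend are Dbp, at 1.88 where the trend is at 5.61, Nr1d1, at 5.10 where it is at 3.38, and Per2, at 0.68 where it is at 1.99.

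With the smooth GC trend taken out of every gene, the SD of the log2 ratio over the 10 genes was 1.41 in place of 2.49, and 3 were called, against 22.1% of the 14801 genes that could be tested so. Nr1d1 was the one gene that kept its call and direction, at 1.76 (exact adjusted p = 2.28e-09). Per1 was at 0.74, Cry2 at -0.19, Clock at 0.02 and Nr1d2 at -0.29, none of them called. Arntl at -0.13, Per3 at -0.73 and Cry1 at -0.91 were not called either. Per2 at -1.30 and Dbp at -3.64 were called higher in library 1, opposite to their ratios before. The Dbp value rests on 42 counts in library 2 and 8 in library 1, and on the GC content of Dbp-201, which carried 38.8% of the gene in library 2 and 5.63% in library 1.

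The scaling of the libraries also decided several directions. Division by total counts, which include the mitochondrial reads, lifted every log2 ratio by about 0.90. All 6 clock genes then called (Per1, Per2, Per3, Cry2, Nr1d1 and Dbp) were higher in library 2. Of all genes, 53.7% were called on that scaling, 7644 as higher in library 2 and 710 as higher in library 1. Relative to the shift, their order is unchanged by construction. Arntl at 0.45 and Cry1 at 0.72 changed sign, and Clock at -0.52 and Nr1d2 at -0.86 were no longer called. With mitochondrial genes and their copies left out of the totals, the shift was 0.24 and the 6 calls were those of the TMM scaling.

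**Figure D3:**
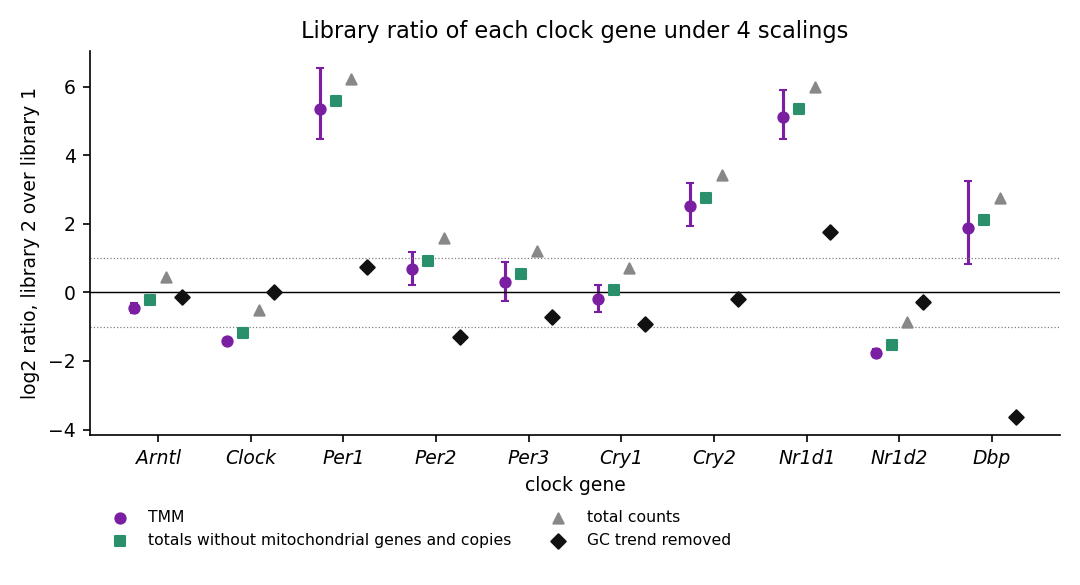
Log2 ratio of each clock gene, library 2 over library 1, under TMM scaling (circles, with 95% counting intervals), totals without mitochondrial genes and copies (squares), total counts (triangles) and with the GC trend removed (diamonds); dotted lines mark log2 ratios of -1 and 1. Per1 and Nr1d1 lie above 5 under the first 3 scalings, and with the GC trend removed Per1 lies at 0.74 and Nr1d1 at 1.76.

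Of the 10 genes, 7 had several transcripts in the tables, and the leading transcript by deposited share was the same in both libraries for 8 of 10. Per1-201 carried 84.3% of Per1 in library 2 and 100% in library 1, where the gene had 9 counts. Nr1d1-201 carried 97.0% in library 2 and 100% in library 1. Nr1d2-201 carried 96.1% in library 2 and 98.2% in library 1, and Cry2-201 carried 94.9% in library 2 and 84.8% in library 1. The leading transcript differed in Per3 and Dbp. Per3-201, annotated as protein coding, carried 65.0% (54.2 counts) in library 2 and 32.2% (20.4 counts) in library 1, and Per3-204, annotated as a processed transcript, carried 25.7% (12.8 counts) in library 2 and 41.5% (15.7 counts) in library 1. In Dbp, Dbp-201 led in library 2, and ENSMUST00000155439, a transcript of 815 bases that the reference annotation used here does not name, carried 33.5% (8.49 counts) in library 2 and 94.4% (6.94 counts) in library 1. Both differences rest on few counts. By posterior mean share, the leading transcript differed in Per1, Per2 and Cry2 too. Per1-201 then carried 63.0% in library 2 and 14.3% in library 1, and Per2-201 carried 54.8% in library 2 and 34.3% in library 1. For Cry2-201 that share was 81.7% in library 2 and 41.4% in library 1.

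**Figure D4:**
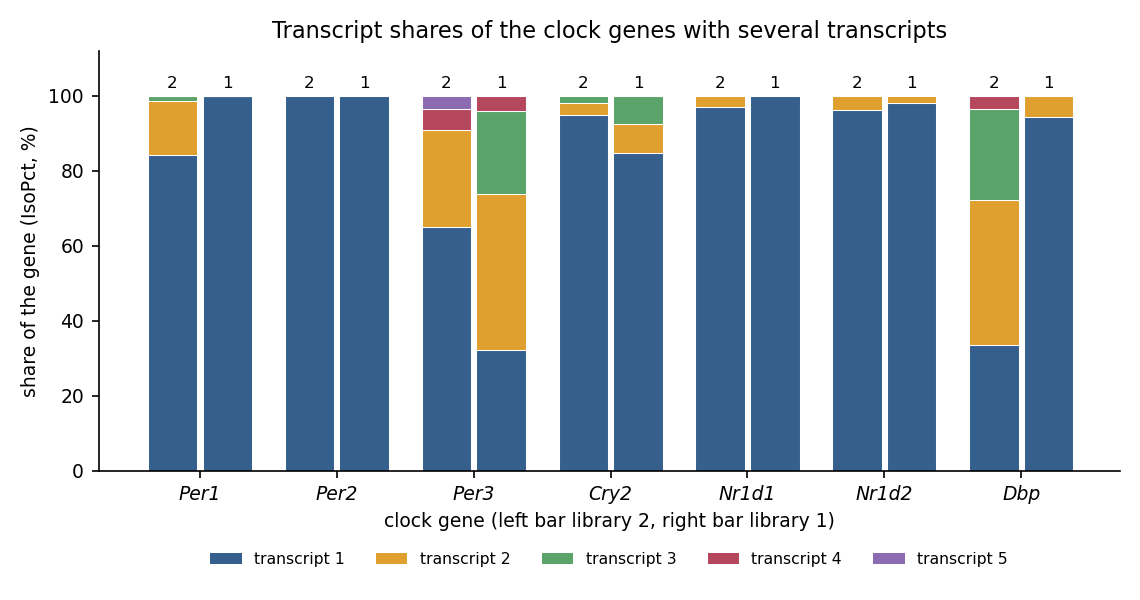
Share of each transcript in its gene (deposited IsoPct, percent) for the 7 clock genes with several transcripts, left bar library 2 and right bar library 1; colours number each gene's transcripts by their summed share. By IsoPct, 1 transcript holds over 80% of Per1, Per2, Cry2, Nr1d1 and Nr1d2 in both libraries. By posterior mean share, that is so for Nr1d1 and Nr1d2 but not for Per1, Per2 and Cry2. The leading transcript by IsoPct differs between the libraries in Per3 and Dbp.

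Exons of 4 clock genes overlap a gene on the opposite strand, and the sources used here do not state whether the counting used strand, so reads from the overlap cannot be assigned with certainty. Nr1d1 shares 263 bases (8.55% of its exons) with Thra, the thyroid hormone receptor gene, which had 48.7 TPM in library 2, against 1.62 TPM in library 1. Dbp shares 539 bases (18.0%) with the sphingosine kinase gene Sphk2, which had 16.98 TPM (812 counts) in library 2, against 0.08 TPM (8 counts) in library 1, a difference in the same direction as that of Dbp. The part of these neighbours in the ratios was not tested. Cry2 shares 295 bases with D930015M05Rik (0.49 TPM in library 2, against 0.06 TPM in library 1) and Arntl 33 bases with Gm45355.

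The other genes of the loop had log2 ratios between -1.87 and 1.82. Of 12, 11 were tested: 4 were higher in library 2, 2 were higher in library 1 and 5 were not called, with a median log2 ratio of 0.73; 6 of 11 called is near the 60.5% of all genes, and with the GC trend removed 0 were called, against 22.1% of all genes. The most abundant were Bhlhe40, an E-box repressor, with 43.2 TPM in library 2, against 8.83 TPM in library 1, Tef with 34.4 TPM in library 2, against 6.84 TPM in library 1, and Hlf with 18.1 TPM in library 2, against 11.6 TPM in library 1. Timeless had the largest log2 ratio of the list at 1.82 (3.39 TPM in library 2, against 0.58 TPM in library 1), and Rorb, the ROR of brain and retina, the smallest at -1.87 (0.09 TPM in library 2, 0.12 TPM in library 1). Arntl2 (0.36 TPM in library 2, 0.27 TPM in library 1), Bhlhe41 (0.43 TPM in library 2, 0.40 TPM in library 1), Rorb and Ciart (2 counts in library 2 and 0 in library 1) were under TPM 1 in both libraries. Ciart, which encodes the repressor CHRONO, had too few counts to be tested, and the 0 allows up to 3 counts.

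Kinases and ubiquitin ligases that set the lifetime of PER and CRY were better covered, and Usp2, which encodes a deubiquitinase, was listed with them. Of 9, 3 were higher in library 2, 3 were higher in library 1 and 3 were not called, with a median log2 ratio of -0.36; 6 of 9 called is near the 60.5% of all genes. With the GC trend removed, Csnk1e alone was called, at 1.02, of the 8 that could be tested, against 22.1% of all genes. Csnk1a1 had 78.0 TPM in library 2, against 79.97 TPM in library 1, with the smallest log2 ratio of the list at -1.55. The ligase gene Fbxw11 had 48.6 TPM in library 2, against 26.9 TPM in library 1. Csnk1e, a kinase of PER, had the largest log2 ratio at 2.01 (12.0 TPM in library 2, against 0.82 TPM in library 1).

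Among 12 kidney genes known as outputs of the clock, 4 were higher in library 2, 3 were higher in library 1 and 5 were not called, with a median log2 ratio of -0.21; 7 of 12 called is near the 60.5% of all genes. With the GC trend removed, 1 was called higher in library 2 (Slc9a3) and 2 higher in library 1 (Avpr2 and Noct), of the 11 that could be tested. Of all genes, 22.1% were called with that trend removed. Wnk1, a kinase that controls salt transporters, had 303 TPM in library 2, against 394 TPM in library 1. Aqp2, the vasopressin-dependent water channel, had 176 TPM in library 2, against 0.79 TPM in library 1, and the largest log2 ratio at 6.41, which was 0.19 and not called with the GC trend removed. Sgk1, the aldosterone-induced kinase, had 90.6 TPM in library 2, against 39.2 TPM in library 1. Nampt, the enzyme of NAD salvage, had the smallest log2 ratio at -1.77 (47.5 TPM in library 2, against 62.9 TPM in library 1).

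Of 7 genes known to be induced by glucocorticoids, a hormonal time signal to the peripheral clock, 2 were higher in library 2 (Per1 and Fkbp5) and 5 were not called, with a median log2 ratio of 0.48; 60.5% of all genes were called. With the GC trend removed neither held (0.74 for Per1, -0.0026 for Fkbp5), and Zbtb16 at -1.12 and Dusp1 at -1.53 were called higher in library 1. The share of all genes called was then 22.1%. Beside Sgk1, the most abundant by the mean of both libraries were Klf9, with 58.5 TPM in library 2, against 43.5 TPM in library 1 and the smallest log2 ratio at -0.94, and the phosphatase gene Dusp1, with 40.6 TPM in library 2, against 9.27 TPM in library 1. In library 1 alone Dusp1 lay below Fkbp5, which had 21.7 TPM in library 2, against 11.2 TPM in library 1, and Tsc22d3, which had 27.2 TPM in library 2, against 11.8 TPM in library 1. Over the 36 related genes tested outside the core, 12 were higher in library 2, 8 were higher in library 1 and 16 were not called, beside 60.5% called among all genes. On total counts 17 were higher in library 2 and 0 in library 1, beside 53.7% of all genes called. With the GC trend removed 2 were higher in library 2 and 4 in library 1, beside 22.1% of all genes called. Their median log2 ratio was -0.10, beside 0.12 for all genes tested.

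**Figure D5:**
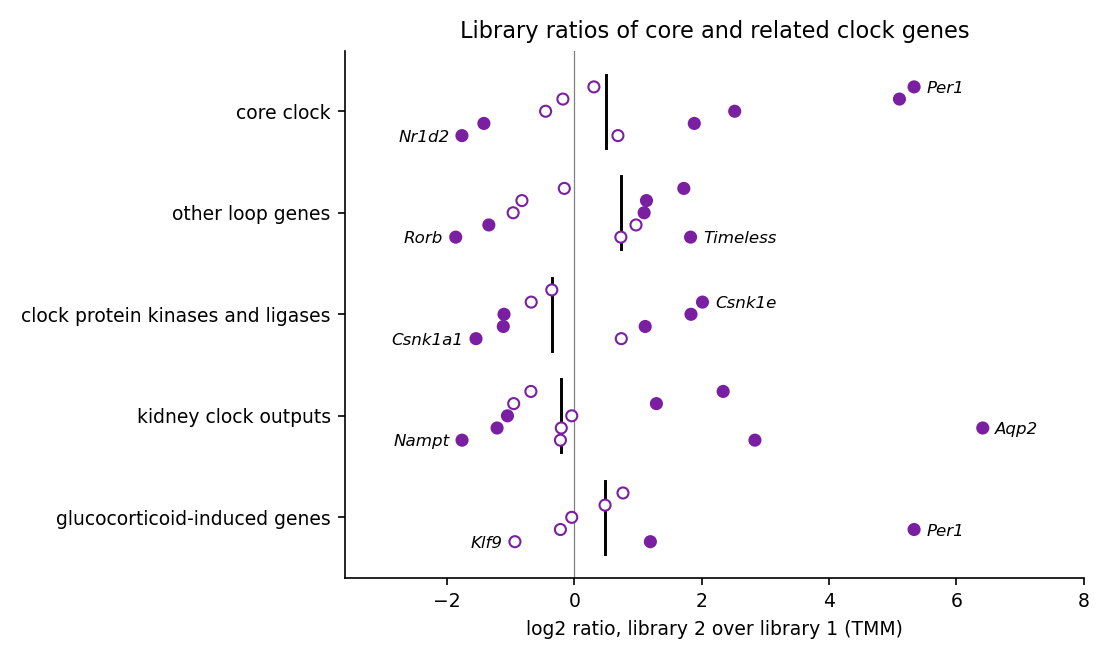
Log2 ratio of scaled counts, library 2 over library 1, for the core clock genes and 4 related lists; filled points were called, open points were not, and black lines are list medians. Per1 reaches 5.33 and Aqp2 6.41, and the other named extremes, from -1.87 for Rorb to 2.01 for Csnk1e, lie nearer to 0.

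By distance on log2(TPM + 1) over the 2 libraries, the 3 genes nearest to Nr1d2, the clock gene of highest mean TPM, were Csnk1g3 (14.1 TPM in library 2, against 18.0 TPM in library 1), Med6 (14.02 TPM in library 2, 18.0 TPM in library 1) and Arhgap42 (14.1 TPM in library 2, 17.8 TPM in library 1). The 3 nearest to Per1 were Miip (7.36 TPM in library 2, against 0.06 TPM in library 1), Aspg (7.34 TPM in library 2, 0.08 TPM in library 1) and Shisa4 (7.34 TPM in library 2, 0.08 TPM in library 1). The first 3 have transcripts of 43.2% to 43.6% G or C and the last 3 of 54.4% to 58.1%. These genes were picked by their TPM in both libraries, which also sets their ratio between libraries. Their GC contents are therefore no separate observation on the GC trend.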

How the data were processed

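RNA-seq of polyadenylated RNA gave 2 libraries of 1 kidney sample. Tables per gene and per transcript were deposited, made on mm10 with annotation M4 per the text beside them. The sources used here do not name the aligner, the quantifier or the use of strand. Expected counts and posterior mean counts, per the file headers, were deposited as estimated reads with no normalization. TPM and FPKM values were deposited per length and depth, per the file headers, with credibility interval bounds of TPM as a score of unstated level. Transcript shares within a gene were deposited in percent.

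GENCODE M21, on that assembly too, gave symbols and coordinates, with 42462 of 43346 gene rows matched. Expected counts were rounded and scaled by TMM (edgeR 4.0.16, over genes of 10 or more summed counts). A two-sided exact conditional binomial test with Benjamini-Hochberg adjustment was run on those genes (scipy 1.17.1), since 1 library a side leaves no residual degrees of freedom for a quasi-likelihood fit. A prior count of 0.5 entered log2 ratios. GC content is that of a gene's leading transcript with a length within 10% of its reference length. Its trend was fitted by LOWESS (span 20%, at least 100 counts, statsmodels 0.14.6), removed by scaling library 2 per gene. Mitochondrial copies were found with blastn 2.17.0 at 95% identity. The test was checked on simulated counts with counting noise only, so that check does not cover other variation between libraries. Intervals are 95% exact intervals and cover counting error only.

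All 10 clock genes were named. Of each related list, the 3 of highest mean TPM, those under TPM 1 in both libraries and those of largest and smallest ratio were named, with genes nearest in level and genes with overlapping exons. A few items chosen by these rules are left out. Fkbp5, Npas2, Tsc22d3, Zbtb16, Slc9a3, Avpr2, Noct and Usp2 were named after their values were seen. The members and lists were chosen with earlier results of these data known. Alternatives were DESeq2 1.42.0 size factors, total counts, totals without mitochondrial genes, posterior mean counts, no count minimum, a prior of 5, GC trend removal, other thresholds and pseudocounts, and leaving out each library.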

Additional observations from a re-analysis of the deposited data

How the results depend on the processing

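No paired analysis was possible because the 2 libraries form 1 group, so no groups share replicate numbers. Once TPM was rescaled without mitochondrial genes and copies, 7 clock genes reached TPM 1 in both libraries, against 4 as deposited; leaving out 1 library gave 9 (without library 1) and 4 (without library 2). The median TPM, 2.76 on the mean of both libraries, was 5.33 without library 1 and 0.365 without library 2. The number of clock genes called, 6, was 3 with the GC trend removed and 3 at an absolute log2 ratio of 2 or more. Their median log2 ratio, 0.49, was 1.39 on total counts, 1.44 as a difference of log2(TPM + 0.1) and reversed to -0.24 with the GC trend removed. With that trend removed, Clock (0.0195), Per2 (-1.30), Per3 (-0.73), Cry2 (-0.19) and Dbp (-3.64) reversed. On total counts Arntl (0.45) and Cry1 (0.72) reversed, and Cry1 did so too (0.0584) on totals without mitochondrial genes and copies. The same leading transcript stood in both libraries for 5 genes by posterior mean share, against 8 by deposited share. Of the related genes, 6 were called with the GC trend removed, against 20. Size factors of DESeq2, posterior mean counts, no count minimum and a prior count of 5 reversed no clock gene's ratio and moved no count of calls by over 1.5 times. The log2 ratio of Per3 to Per2, averaged over both libraries, was -1.20 by posterior mean TPM, against -0.16 by TPM. Leaving out a library gives no ratio between libraries. The causes were not tested. Per1 in library 1 (9 counts) and Dbp (42 counts in library 2 and 8 in library 1) rest on few counts, and 1 animal at 1 unstated hour says nothing of the rhythm.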
